A study of Mus musculus with 8 samples.

Results

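The 10 genes described here are antioxidant genes of the transcription factor NRF2: Hmox1, Nqo1, Gclc, Gclm, Txnrd1, Srxn1, Slc7a11, Prdx1 and Gsr, together with Nfe2l2, which encodes NRF2 itself. They were chosen by name, with earlier results of these data known. Their counts set beside those of all genes are therefore descriptions and not independent tests. Each was followed through the probe set annotated to that symbol alone, the brightest one where a gene had several, out of 19938 genes with such a probe set. The 9 members other than Nqo1 were among the 13205 genes bright enough to be tested (mean log2 intensity above 7.14). Nqo1 had a mean log2 intensity of 6.86, and its tests come from a fit of all 19938 genes without that filter.

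The cells were stromal cells grown out of the femoral and tibial marrow of C57BL/6 mice aged 6 to 8 weeks, carried on Skelite, a ceramic bone substitute. There were 8 arrays, 1 for each of 4 conditions in each of 2 media, growth medium and osteoinductive medium. The conditions were laboratory dishes, incubation hardware on the ground (ground hardware), the same kind of hardware in orbit on a 1g centrifuge (centrifuge), and the hardware in orbit without it (microgravity). The first pair is called ground-based and the second pair flight. Units in orbit were automated and those on the ground manual, so orbit and mode of operation cannot be told apart. Both centrifuge samples carry the gravity label microgravity, and the osteoinductive one is described once as kept in growth medium. Titles were followed for both. Separate animals or cultures behind the arrays are not recorded in the labels, so every p-value rests on the spread among the 8 arrays alone. That spread may be technical in part. With 1 array per medium and condition, it also holds differences between conditions. In the fits of flight these are the differences within the flight or ground-based pair. In the fit of all conditions they are the differences that change with medium.

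NRF2 is held at a low level in resting cells by KEAP1, which sends it for degradation. Oxidants and electrophiles modify KEAP1, NRF2 then accumulates, pairs with a small MAF protein and binds antioxidant response elements in the promoters of its targets. Its targets make and recycle glutathione, run the thioredoxin cycle, break down haem and reduce quinones. In marrow stromal cells the balance of oxidants is known to bear on osteoblast differentiation.

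Promoter windows from RefSeq (GRCm38.p6, 250 bases before to 50 bases after each annotated start) were available for 7 members, in 9 windows, and were searched on both strands for the core of the antioxidant response element, TGACNNNGC. Of these 7 members, 5 held a match, and 14% of all 27025 genes with a window did. Over windows the share was 12.4% of 32851. The matches upstream of a start are shown because NRF2 is known to act through this kind of element. The core is in capitals and each sequence is on the strand of its gene.

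Gclm, chr3:122245408-122245446, plus strand: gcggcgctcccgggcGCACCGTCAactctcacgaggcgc
Txnrd1, chr10:82859099-82859137, plus strand: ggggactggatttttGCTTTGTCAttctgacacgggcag
Prdx1, chr4:116685451-116685489, plus strand: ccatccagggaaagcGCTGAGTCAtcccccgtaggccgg
Nfe2l2, chr2:75704880-75704913, minus strand: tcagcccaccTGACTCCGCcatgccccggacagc

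In Gclm, Txnrd1 and Prdx1 the core reads on the strand opposite to the gene, and in Nfe2l2 on the gene's own strand. The core began 134 bases before the start of Gclm, 92 before a Txnrd1 start, 133 before the Prdx1 start and 240 before the Nfe2l2 start. The Txnrd1 match lay in 1 of that gene's 3 windows. The Srxn1 match lay after the start, and the windows of Nqo1 and Slc7a11 held none. A match is a description of these letters only. The arrays do not measure binding.

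In flight, 7 of the 9 tested members fell against the ground-based arrays and none rose. Gclm, Hmox1 and Srxn1 fell most, 1.98-fold, 1.91-fold and 1.78-fold, and the median log2 difference of the 9 was -0.57 against -0.09 over all tested genes. Gclc and Nfe2l2 did not pass the test, but both did without the growth-medium centrifuge array (adjusted p = 0.0426 and 0.0145 in limma). With no term for medium, 2 members passed, Prdx1 and Gsr, where 1841 of the 13205 tested genes passed as lower. Of all 13205 tested genes, 25.7% were called lower in flight and 12.7% higher. Called means a Benjamini-Hochberg adjusted p under 0.05 over all tested genes in limma, and this comparison holds medium as a term. Bright genes were called lower more often: of the 4688 genes with a mean log2 intensity above 9, where all 9 tested members lie, 38.5% were called lower, with a median of -0.205. In bulk cultures, fewer cells of a type and less RNA per cell cannot be told apart.

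Of 14 stromal markers, 13 were above the filter and Lepr was below it. Col1a1 had a mean log2 intensity of 12.65 and Fn1 of 13.42. Of the neuron, skeletal muscle and lung epithelium lists, 9 of 10 each were above the filter as well. Passing the filter therefore does not check the stromal label. Array medians lay between 180.9 and 196.4. Markers of other cells moved with flight: 9 of 9 tested neuron markers rose (summed intensity 10729 to 15883 in flight against 2773 to 3820), as did 8 of 9 of skeletal muscle (6363 to 8457 against 2240 to 2439), 7 of 7 endothelial and 4 of 9 lung epithelial ones. The endothelial sums were 1821 to 3289 against 1308 to 1402. The lung sums were 2499 to 15285 against 1502 to 1661, the highest on the osteoinductive microgravity array. Of stromal markers, 2 rose and 5 fell (32072 to 43264 against 38795 to 44863). Macrophages are known to be rich in Hmox1. Of 9 tested macrophage markers, 1 rose and 1 fell (2315 to 3129 against 2299 to 2582), with Ptprc, Adgre1, Itgam, Mrc1 and Fcer1g below the filter. Of the erythroid list, 5 of 8 genes were measured (990 to 1401 against 1487 to 1826). Of its 3 tested genes, Slc4a1 rose (0.30, adjusted p = 0.0106 in limma) and Tfrc fell (-0.87, 0.00092). Alas2 and Klf1 were below the filter. Tfrc gave 974.9 of the summed 1564 on the growth-medium laboratory array and 331.6 of 990 on the osteoinductive centrifuge array. The part of these markers in the members' differences was not tested.

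**Figure D1:**
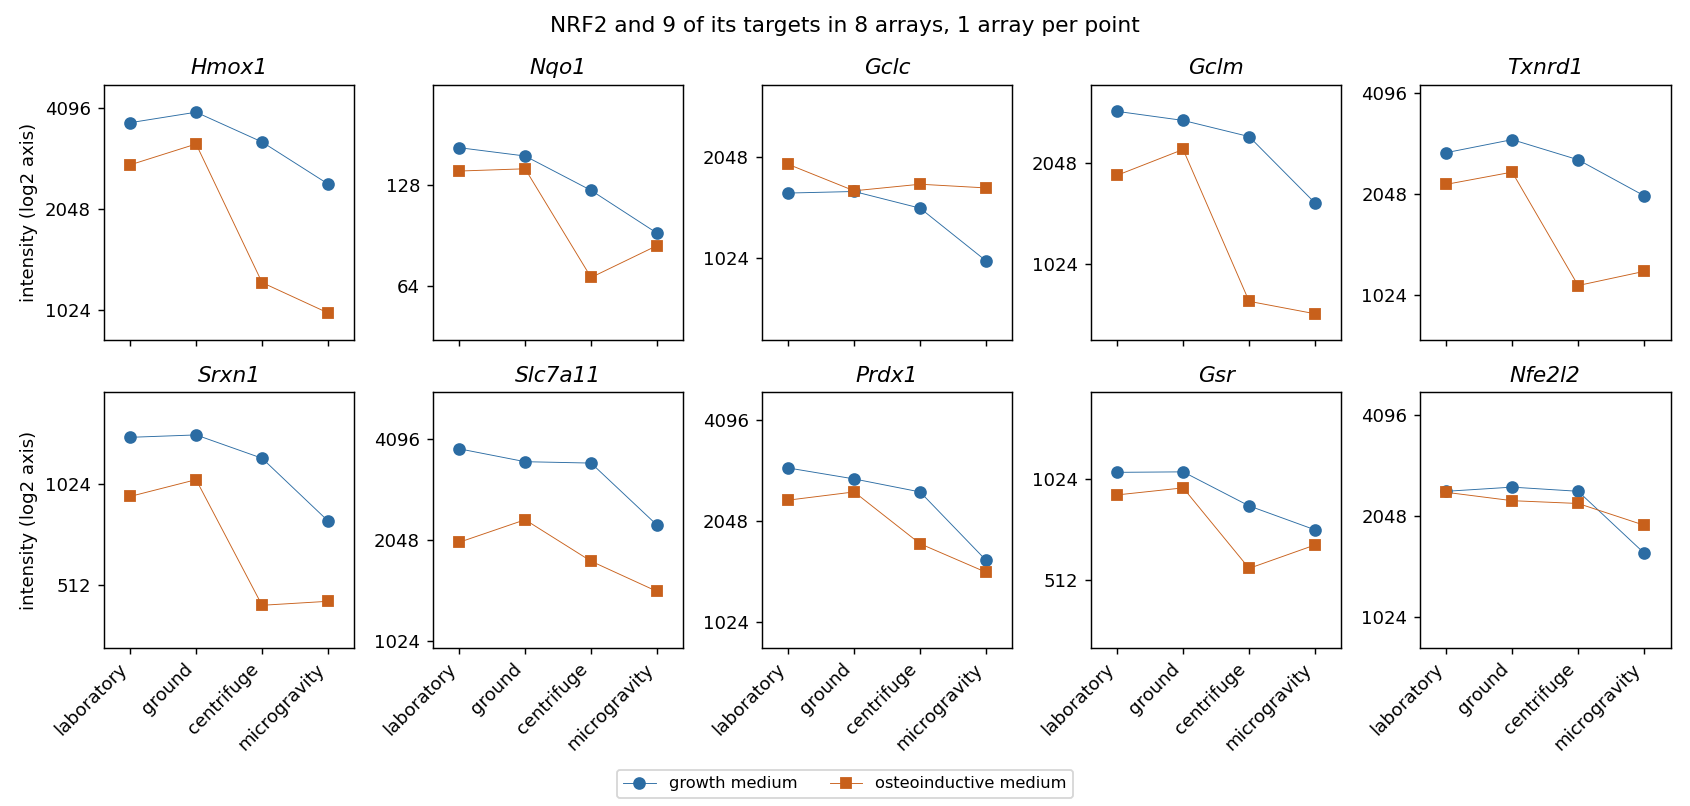
Intensity of each of the 10 members on each of the 8 arrays, on a log axis, with 1 point per array, circles for growth and squares for osteoinductive medium, and thin lines joining the arrays of a medium. Hmox1, Gclm, Txnrd1 and Srxn1 drop furthest on the flight arrays in osteoinductive medium, while Gclc and Nfe2l2 drop least there.

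Nfe2l2 encodes the regulator. In growth medium its intensity was 2429 in laboratory dishes, 2499 in ground hardware, 2429 on the centrifuge and 1589.9 in microgravity. In osteoinductive medium it was 2412, 2277, 2234 and 1925 in the same order. The microgravity array was lowest in each medium, and the centrifuge arrays lay close to the ground-based ones. The log2 difference between flight and ground-based arrays was -0.25 (SE 0.12, adjusted p = 0.11 in limma), which did not pass.

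Hmox1 encodes haem oxygenase 1, which opens haem into biliverdin, iron and carbon monoxide. In growth medium it read 3698.5 in laboratory dishes, 3975 in ground hardware, 3239.8 on the centrifuge and 2429 in microgravity. In osteoinductive medium it read 2769.6, 3196, 1235.5 and 1003. Both flight arrays were below both ground-based arrays in each medium, and the gap was wider in osteoinductive medium. Hmox1 fell by 0.93 on the log2 scale in flight (SE 0.17, adjusted p = 0.00151 in limma).

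Nqo1 encodes a quinone reductase that moves a pair of electrons at once and so avoids semiquinone radicals. It was dim, at 165, 156, 123 and 92.0 in growth medium (laboratory, ground hardware, centrifuge, microgravity) and 141, 143, 67.9 and 84.5 in osteoinductive medium. All 4 flight arrays were below all 4 ground-based arrays, as for 16.2% of the tested genes, which leave out Nqo1. In the fit without a filter, where 16.2% of genes were called lower, Nqo1 fell by 0.75 in flight (SE 0.11, adjusted p = 0.00047 in limma).

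The glutathione members cover import of the precursor, synthesis and recycling. Slc7a11 is the cystine and glutamate exchanger that brings in cystine. Its intensity was 3819 in laboratory dishes, 3496 in ground hardware, 3463 on the centrifuge and 2262 in microgravity in growth medium, and 2011, 2348, 1767 and 1436 in osteoinductive medium. Slc7a11 was lower in osteoinductive than in growth medium in each condition, and the microgravity array was lowest in each medium. Slc7a11 fell by 0.42 in flight (SE 0.13, adjusted p = 0.0211 in limma). That call is lost after quantile normalization (adjusted p = 0.0911) and without the laboratory growth (0.0587), microgravity growth (0.0615), ground hardware osteoinductive (0.0652) or microgravity osteoinductive array (0.0734).

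Glutamate-cysteine ligase, the enzyme that sets the pace of glutathione synthesis, has a catalytic subunit, Gclc, and a modifier subunit, Gclm. Gclm read 2922 in laboratory dishes, 2746 in ground hardware, 2458 on the centrifuge and 1558 in microgravity in growth medium. In osteoinductive medium it read 1885, 2250.2, 794 and 729. Gclm was thus low on both flight arrays in osteoinductive medium and on the microgravity array in growth medium, with no overlap within a medium. It fell by 0.98 in flight (SE 0.18, adjusted p = 0.00129 in limma).

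Gclc, the catalytic subunit, read 1600.1, 1617, 1442.5 and 1005 in growth medium and 1949, 1625, 1700.0 and 1657.5 in osteoinductive medium, in the same order of conditions. Its low array was microgravity in growth medium, and in osteoinductive medium both flight values lay between the laboratory and ground hardware values. The log2 difference of Gclc in flight was -0.25 (SE 0.12, adjusted p = 0.11 in limma).

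Gsr encodes glutathione reductase, which returns oxidized glutathione to its reduced form. It read 1073, 1077, 853 and 723.5 in growth medium, and 919.5, 965, 556 and 652 in osteoinductive medium. All 4 flight arrays were below all 4 ground-based arrays, as for 16.2% of all tested genes. Gsr fell by 0.55 in flight (SE 0.09), with an adjusted p of 0.000623 in limma.

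The thioredoxin members are the reductase Txnrd1, the peroxide-removing enzyme Prdx1, and Srxn1, sulfiredoxin, which repairs over-oxidized peroxiredoxins. Txnrd1 read 2718, 2973, 2589 and 2023 in growth medium and 2187, 2379, 1093 and 1204 in osteoinductive medium. Srxn1 read 1408, 1431, 1219 and 793 in growth medium and 938, 1053, 445 and 457 in osteoinductive medium. In both genes the pair of flight arrays in osteoinductive medium stood lowest, below all 6 other arrays. The flight difference was -0.65 for Txnrd1 (SE 0.13, adjusted p = 0.00278 in limma) and -0.83 for Srxn1 (SE 0.14, adjusted p = 0.00093).

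Prdx1 read 2943, 2729.8, 2497 and 1562 in growth medium and 2360.1, 2497, 1750.1 and 1439 in osteoinductive medium. Both flight arrays were below both ground-based arrays within each medium, and microgravity was lowest in each. Prdx1 fell by 0.57 in flight (SE 0.13, adjusted p = 0.0049 in limma). It is the member with a second probe set of its own, which read 2461, 2168, 2004 and 1353 in growth medium and 1754, 1928, 1331 and 1111 in osteoinductive medium, with the same arrays low.

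Within growth medium, both flight arrays were below both ground-based arrays for 9 of the 10 members, Nfe2l2 being the exception, against 35.1% of all tested genes. Within osteoinductive medium this held for 9 of the 10, Gclc being the exception, against 45.5% of all tested genes. All 4 flight arrays were below all 4 ground-based arrays for Nqo1 and Gsr, 2 of the 10, against 16.2% of all tested genes. The 10 include Nqo1, which is not among the tested genes, so among tested members this held for Gsr alone. For the other 8 members the ranges of flight and ground-based arrays overlapped once the media were put together.

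The flight difference was then fitted in each medium. In osteoinductive medium, 6 of the 9 tested members fell, against 11.7% of all tested genes called lower (16.5% of the bright ones). Gclm fell 2.71-fold (log2 -1.44, SE 0.18, adjusted p = 0.000274 in limma) and Hmox1 fell 2.67-fold (log2 -1.42, SE 0.16, adjusted p = 0.000103). Srxn1 fell 2.2-fold, Txnrd1 1.99-fold, Gsr 1.56-fold and Prdx1 1.53-fold, with adjusted p between 0.0005 and 0.0402. In the fit without a filter, where 6.74% of genes were called lower, Nqo1 fell 1.87-fold (adjusted p = 0.00266).

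The 3 members that did not pass in osteoinductive medium were Slc7a11 (log2 -0.45, adjusted p = 0.11 in limma), Nfe2l2 (-0.18, 0.498) and Gclc (-0.085, 0.745). Slc7a11 passed without either growth-medium flight array, where lower calls over all tested genes were also more frequent. Gclc's difference there was 0.076 after quantile normalization and 0.047 without the laboratory array, so it has no settled sign. The Prdx1 call was lost after quantile normalization (adjusted p = 0.0587), with no filter (0.0528) and without any 1 of the 6 arrays other than the growth-medium flight pair (0.0573 to 0.238). The Gsr call was lost without the ground hardware (0.0595) or the centrifuge (0.0563) osteoinductive array.

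In growth medium, only Gsr passed, with a fall of 0.45 (SE 0.13, adjusted p = 0.0356 in limma), 1 of 9 against 5.79% of all tested genes. The other 8 had log2 differences from -0.53 to -0.31 and adjusted p from 0.0591 to 0.221. Without a filter, where 3.36% of genes were called lower, Nqo1 fell by 0.59 (SE 0.15, adjusted p = 0.0296). The count turned on single arrays: it was 9 of 9 without the growth-medium centrifuge array, and 0 without the laboratory or ground hardware array of either medium or the growth-medium microgravity array. It was also 0 after quantile normalization, where Gsr had an adjusted p of 0.0777. Lower calls over all tested genes moved the same way with the arrays. They were more frequent without the growth-medium centrifuge array and less frequent without each of the other arrays just named.

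**Figure D2:**
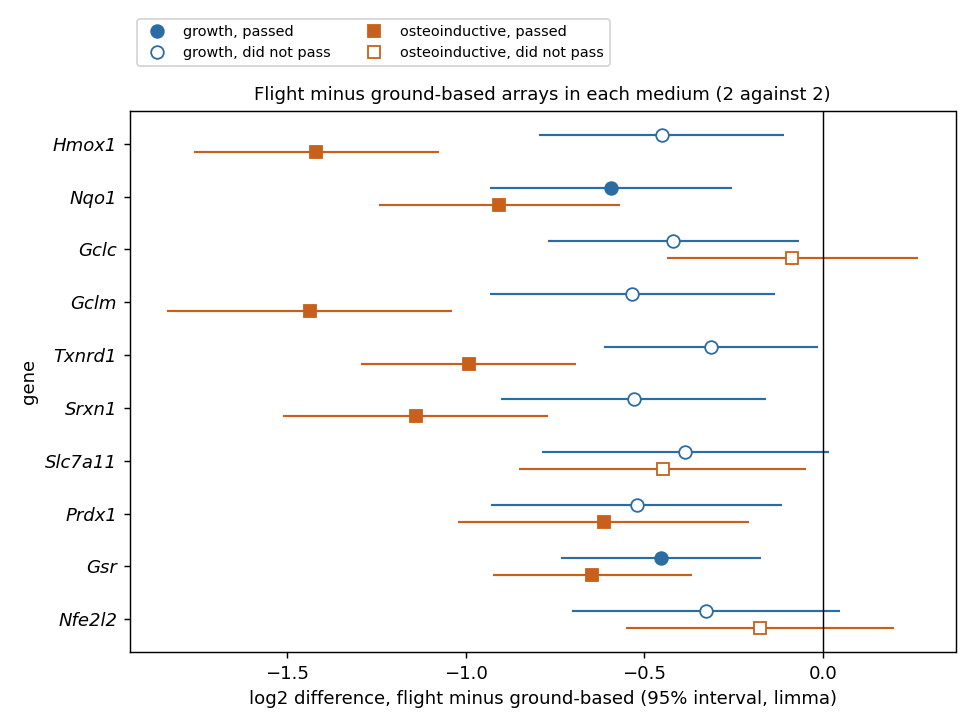
Log2 difference between flight and ground-based arrays for each member in growth medium and in osteoinductive medium, with 95% intervals from limma, and filled marks where the adjusted p passed (Nqo1 from the fit without a filter). Hmox1, Gclm, Txnrd1 and Srxn1 lie between -1.44 and -0.99 in osteoinductive medium and between -0.53 and -0.31 in growth medium, while Gclc lies nearer to 0 in osteoinductive medium.

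Whether the flight difference itself differed between media was tested as an interaction. No member passed, and no gene of the 13205 did (0%; smallest adjusted p of all genes 0.647 in limma). At an unadjusted p under 0.05 there were 4 members and 525 genes. Those 4 members were Hmox1 (log2 -0.97, SE 0.22, unadjusted p = 0.000998, adjusted p = 0.775 in limma), Gclm (-0.90, SE 0.26, 0.00457, 0.981), Txnrd1 (-0.68, unadjusted 0.0046) and Srxn1 (-0.61, unadjusted 0.0263). For Gclc the difference had the other sign, 0.33, with a 95% interval of -0.16 to 0.83. Without the growth-medium microgravity array, which leaves only the centrifuge array for flight in that medium, the Gclm interaction was -1.23.

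The media were also compared within flight and within ground-based arrays. In flight, 5 of the 9 tested members were lower in osteoinductive than in growth medium, against 5.56% of all tested genes. These were Gclm (-1.36), Hmox1 (-1.33), Srxn1 (-1.12), Txnrd1 (-0.996) and Slc7a11 (-0.81), with adjusted p between 0.000335 and 0.0171 in limma. The Slc7a11 call was lost without the growth centrifuge (0.0515), osteoinductive centrifuge (0.0561) or osteoinductive microgravity array (0.13). Prdx1 and Gsr passed without the growth-medium microgravity array, where lower calls over all tested genes were also more frequent. That fit leaves only the centrifuge array for flight in growth medium.

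Gclc had a positive difference between media in flight, 0.48 (SE 0.16, adjusted p = 0.0862 in limma), which passed after quantile normalization (0.0198) and without the growth-medium centrifuge array (0.0047). The 2 subunits of glutamate-cysteine ligase thus had differences of opposite sign between media in flight, Gclm having passed and Gclc not.

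On the ground-based arrays no member was called between media, against 1.7% of all tested genes called in either direction. Slc7a11 came nearest, with -0.75 (SE 0.18, adjusted p = 0.0769 in limma). An unadjusted p under 0.05 was reached by 5 of the 9 members and by 1367 of all tested genes. Slc7a11 passed after quantile normalization. Without the growth-medium centrifuge array, and likewise without the growth-medium microgravity array, Gclm, Srxn1 and Slc7a11 passed. Lower calls over all tested genes were also more frequent in both of those fits.

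Over all 8 arrays the same 5 members were lower in osteoinductive medium, against 8.13% of all tested genes: Gclm (-0.91), Hmox1 (-0.85), Srxn1 (-0.82), Slc7a11 (-0.78) and Txnrd1 (-0.66), with adjusted p between 0.000159 and 0.00651 in limma. The Hmox1 call was lost without either centrifuge array (0.0512). Gclc had 0.31 (adjusted p = 0.0747), which passed after quantile normalization (0.0471) and without either ground hardware array (0.0325). Prdx1 passed when its probe sets were averaged.

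The 4 conditions were compared with medium as a term, so that each condition has 2 arrays. Against ground hardware, 8 of the 9 tested members fell in microgravity, all but Gclc, where 18.1% of all tested genes were called lower (30.4% of the bright ones). The falls ran from 0.45 for Nfe2l2 (adjusted p = 0.0232 in limma) to 1.22 for Gclm (0.00263), with 1.19 for Hmox1 (0.0026), 1.03 for Srxn1 (0.00239) and 0.80 for Prdx1 (0.000916). Without a medium term 1 member passed, Prdx1. The count was 5 without the growth-medium microgravity array, where Txnrd1, Gsr and Nfe2l2 were lost. It was 4 without the osteoinductive ground hardware array, where Slc7a11 was lost as well. Nfe2l2 was also lost without the growth-medium ground hardware array. Without the osteoinductive microgravity array Txnrd1 was lost and Gclc passed (log2 -0.60, adjusted p = 0.0159). Quantile normalization lost both Txnrd1 (0.0677) and Nfe2l2 (0.183). Over all tested genes, lower calls also fell without the growth-medium microgravity or osteoinductive ground hardware array. In the fit without a filter, where 10.6% of genes were called lower, Nqo1 fell by 0.76 (SE 0.17, adjusted p = 0.00872).

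On the centrifuge, 5 of the 9 fell against ground hardware, where 3.78% of all tested genes were called lower (4.56% of the bright ones). These were Hmox1 (-0.83, SE 0.23), Gclm (-0.83), Srxn1 (-0.74), Txnrd1 (-0.66) and Gsr (-0.57), with adjusted p between 0.0181 and 0.0461 in limma. These calls rest on single arrays: the count was 0 without the osteoinductive ground hardware or centrifuge array, and 2 without either microgravity array. Gsr was lost without the growth-medium ground hardware array (0.0524). Over all tested genes, lower calls also fell without the osteoinductive ground hardware or centrifuge array, but rose without either microgravity array. The count was 1, Gsr, after quantile normalization and 0 with no medium term. Over all tested genes, 485 and 96 were called lower there, in place of 499. The stricter filter lost Txnrd1 (0.0569), and with no filter both Gclm (0.0558) and Txnrd1 (0.0631) were lost. In that unfiltered fit, where 2.27% of genes were called lower, Nqo1 fell by 0.71 (SE 0.17, adjusted p = 0.0237). Without the growth-medium centrifuge array Prdx1 passed as well, where lower calls over all tested genes were also more frequent. The microgravity and centrifuge comparisons share their ground hardware arrays.

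Between microgravity and the centrifuge, no member and no gene was called (0%; smallest adjusted p 0.271 among members and 0.187 among all genes in limma). At an unadjusted p under 0.05 there were 3 of the 9 members and 1507 genes. All 9 log2 differences were at or below 0, from -0.48 to -0.00. Their median was -0.36, against -0.05 over all tested genes and -0.147 over the bright ones. Between ground hardware and laboratory dishes none was called either (0%), with 0 of 9 members and 269 genes at an unadjusted p under 0.05, and the smallest adjusted p of all genes was 0.441. The 9 differences lay between -0.12 and 0.16.

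The single arrays show how the flight arrays split by medium, with 1 array on each side and hence no test. In growth medium, microgravity was below the centrifuge for all 10 members, by log2 differences from -0.68 in Prdx1 to -0.24 in Gsr, with a median of -0.57. The median of all tested genes was -0.11, and 62.6% of them were below 0. In osteoinductive medium, microgravity was below the centrifuge for 6 members and above it for 4, from -0.30 in Hmox1 to 0.32 in Nqo1, and the median of all tested genes was 0.00.

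Set against the mean of the 2 ground-based arrays of its medium, the growth-medium centrifuge array had members from -0.38 to -0.02. The growth-medium microgravity array had them from -0.86 to -0.49. In osteoinductive medium the members ran from -1.38 to -0.07 on the centrifuge and from -1.57 to -0.10 in microgravity. The lowest 5% of all tested genes lay below -0.34, -0.71, -0.62 and -0.60 on those 4 arrays.

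**Figure D3:**
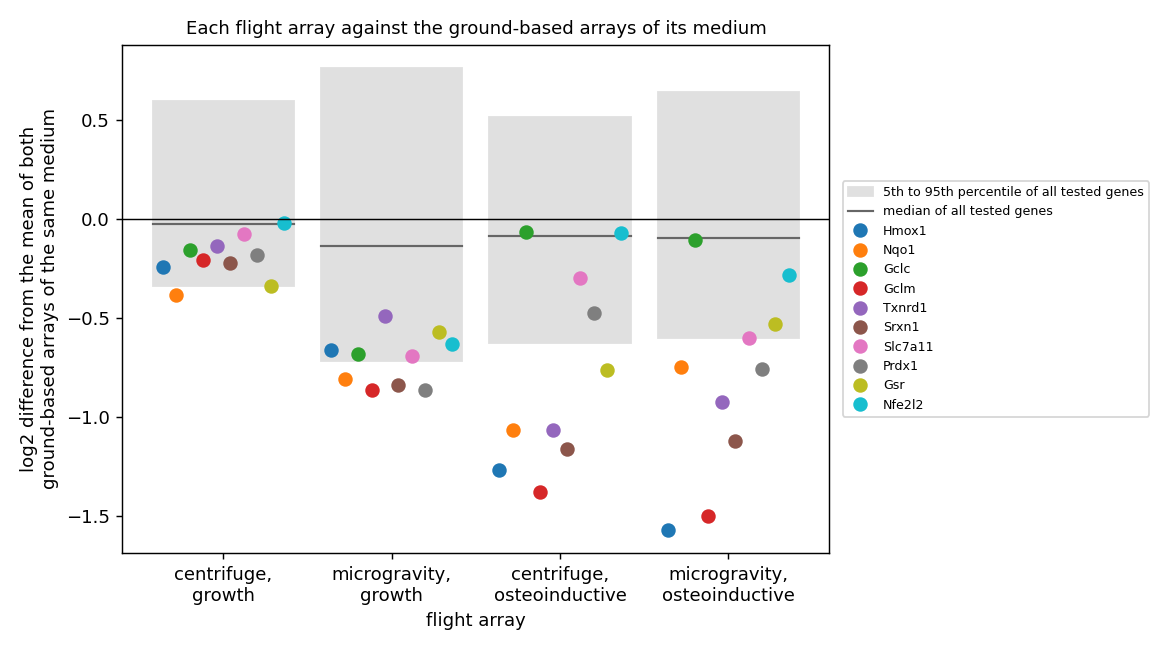
Log2 difference of each flight array from the mean of the 2 ground-based arrays of its medium, with 1 point per member; grey boxes span the 5th to 95th percentile of all tested genes and the line in each is their median. Members on the growth-medium centrifuge array run from -0.38 to -0.02, and Hmox1 and Gclm are the lowest points on both osteoinductive arrays.

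Genes around the members were taken from 8 lists, with members left out of the counts here. Among regulators of NRF2, 6 of 12 tested genes fell in flight and none rose, with a median of -0.26. Maff, a small MAF partner of NRF2, fell by 0.50 (SE 0.09, adjusted p = 0.00104 in limma), and Sqstm1, the autophagy receptor that binds KEAP1, fell by 0.39 (SE 0.09, adjusted p = 0.00728). In glutathione synthesis and use, 14 of 22 fell and none rose. Abcc1, an exporter of glutathione conjugates, fell by 0.88 (adjusted p = 0.000598), and the glutathione transferase Gsta4 fell by 0.80 (0.00259).

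In the thioredoxin and peroxiredoxin system, 5 of 15 fell and 1 rose. Prdx4, the peroxiredoxin of the endoplasmic reticulum, fell by 0.73 (adjusted p = 0.00148 in limma). The gene that rose was Txnip, which encodes an inhibitor of thioredoxin, with a log2 difference of 1.16 (adjusted p = 0.000375), 1.53 in growth and 0.79 in osteoinductive medium. In haem and iron handling, 5 of 11 fell and none rose, among them the transferrin receptor Tfrc (-0.87, adjusted p = 0.00092) and Blvrb (-0.65, 0.000291), a flavin reductase that also reduces the beta form of biliverdin, which is not the form Hmox1 makes.

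NADPH feeds both Gsr and Txnrd1, and of 7 tested genes that supply it 6 fell and 1 rose, with a median of -0.61. Pgd, of the pentose phosphate pathway, fell by 0.82 (adjusted p = 0.000905 in limma) and malic enzyme, Me1, by 0.65 (0.00151). Idh1, the cytosolic isocitrate dehydrogenase, rose by 0.91 (4.78e-05). In the quinone and carbonyl detoxication list, 5 of 8 tested genes fell and 1 rose: the reductase Ptgr1 fell by 0.70 (0.000169) and the carbonyl reductase Cbr1 rose by 0.46 (0.00246). Of 10 other antioxidant enzymes, 1 fell, Pon2 (-0.27, 0.0493). Of 18 targets of ATF4, the amino acid response factor that also acts on Slc7a11, 14 fell and none rose, among them Ddit3 (-1.01), Aldh18a1 (-0.66) and the serine synthesis enzyme Phgdh (-0.65). These counts stand against 25.7% of all tested genes called lower and 38.5% of the bright ones.

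**Figure D4:**
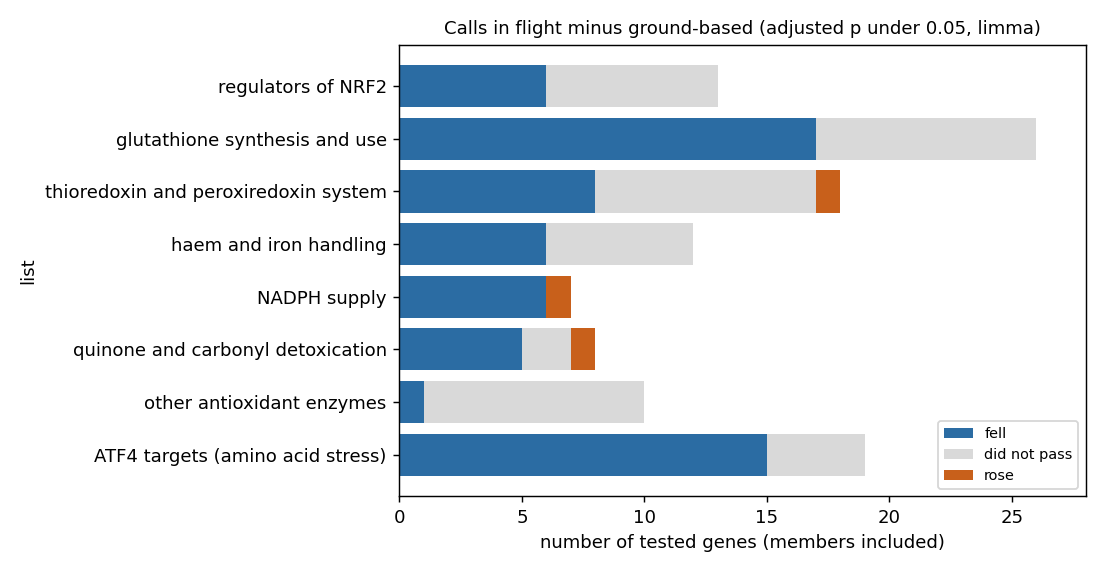
Number of tested genes in each of the 8 lists that fell, rose or did not pass in flight against ground-based arrays, as stacked bars from 0, with members included (adjusted p under 0.05 in limma). With members included, 17 of 26 glutathione genes and 15 of 19 ATF4 targets fell, and the thioredoxin, NADPH and quinone lists each hold 1 gene that rose.

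The tested genes whose centred log2 values over the 8 arrays lay closest to those of 3 members were found by the root mean square difference. Predicted genes (Gm and a number, or names ending in Rik) were left out. Closest to Hmox1, whose own root mean square was 0.69, were its fellow member Gclm (0.10), the adenylate kinase Ak5 (0.105) and the deoxycytidylate deaminase Dctd (0.13). Closest to Slc7a11 (own value 0.48) were Arhgdib and Pla2g4a (both 0.09) and the cytokine Lif (0.096). Closest to Nqo1 (0.44) were Tapbp (0.06), Pop1 (0.07) and Mtmr11 (0.08). These are descriptions over 8 arrays with no test.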

How the data were processed

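RNA from 8 samples was measured on Affymetrix arrays, 1 array per medium and condition. The deposited values are intensities on a linear scale; RMA and GCRMA are named in the submitters' processing notes with no role, the genome build being not given in the sources used here. Of 35557 probe sets, 21789 were annotated to 1 gene, 1621 to several and 12147 to none; 21698 matched RefSeq by identifier. The brightest probe set stood for its gene.

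Log2 of the deposited intensity, with nothing added, was fitted in limma 3.58.1 (R 4.3.3) over all 8 arrays. The fits were flight and medium (5 residual degrees of freedom), flight by medium (4), and condition and medium (3). The last takes the interaction of condition and medium as error. Genes above the 40th percentile of mean log2 were tested, two-sided, with Benjamini-Hochberg adjustment over 13205 genes. The fit of flight and medium was tested on simulated data, and the other fits were not.

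The text names all 10 members, listed genes with the largest called flight differences, and the 3 tested genes closest to each of 3 members, predicted genes left out. Members and lists were chosen with earlier results of these data known. Alternatives were quantile normalization, no or a stricter filter (60th percentile), 32 added before log2, the mean of a gene's probe sets, no medium term, and each array left out. The number of arrays limits the precision.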

Additional observations from a re-analysis of the deposited data

Results flagged for a closer look

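In 20 sets of 4 arrays (flight and ground-based, for each of the 10 members), 1 array stood apart from the other 3 by Dixon's test. It was the osteoinductive laboratory array for Gclc, at an intensity of 1949.4, where the other ground-based arrays read 1600.1, 1617 and 1625. Chance marks about 1 in 20 such sets. Without that array the flight difference of Gclc in osteoinductive medium was 0.047 in place of -0.085 on the log2 scale. Neither value passed the test in limma.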

How the results depend on the processing

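Counts of called members depended on the medium term, single arrays, normalization and the filter on dim genes. Counts over all tested genes also moved with these settings. With each array left out, 2117 to 4768 of the 13205 tested genes were called lower in flight, against 3393 with all 8 arrays. Without a medium term the counts were 2 in flight against ground-based arrays (Prdx1 and Gsr), 1 in microgravity against ground hardware and 0 on the centrifuge against ground hardware. After quantile normalization they were 0 for flight in growth medium, 1 between media on the ground-based arrays and 1 on the centrifuge against ground hardware; with no filter, 2 members were called for flight in growth medium, Nqo1 being added. On the centrifuge against ground hardware the count was 4 with the stricter filter, and 4 with no filter, Nqo1 included. Leaving out each array gave 6 to 9 members for flight, 0 to 9 for flight in growth medium and 4 to 7 in osteoinductive medium. It gave 0 to 1 for the interaction. Between media it gave 4 to 7 in flight, 0 to 3 ground-based and 4 to 6 over all arrays, and against ground hardware 4 to 8 in microgravity and 0 to 6 on the centrifuge. Microgravity against the centrifuge and ground hardware against laboratory dishes kept 0 under every array left out. The flight difference of Gclc in osteoinductive medium turned to 0.076 after quantile normalization and ran from -0.216 to 0.047 over the arrays left out, the highest without the osteoinductive laboratory array. Of the recomputed values of single members, 678 kept their direction and side of the threshold, 78 lost their call, 19 gained one and these 2 changed sign. The cause was not tested. With 1 array per medium and condition, no difference between single arrays can be tested.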
